A study of Mus musculus with 8 samples.

Results

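The 71 genes described here encode the carriers of solute carrier family 25, most of them mitochondrial, and the translocases that import proteins into mitochondria. They were picked by name from the 21761 genes of the deposited count table. A gene was taken as a carrier if its name starts with Slc25a (47 genes) and as an import translocase if it starts with Tomm or Timm followed by a digit (24 genes). The name rule used no measured value, although the members were chosen with earlier results of these data known. Carriers that go by other names, such as the uncoupling proteins Ucp1, Ucp2 and Ucp3, and import genes that go by other names were placed in a separate list. This list of 44 partner genes also holds mitochondrial genes of protein folding, quality control and other metabolite entry.

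The counts come from ribosome-associated RNA of midbrain dopaminergic neurons of C57BL/6 mice, obtained by translating ribosome affinity purification (TRAP), which pulls down tagged ribosomes with the RNA they carry. In the MPTP group (4 libraries) mice received MPTP-HCl, at 30 mg/kg free base, by a daily intraperitoneal injection for 5 days, and in the saline group (4 libraries) they received saline on the same schedule. Tissue was taken 4 days after the last injection. The sources used here do not give the promoter behind the ribosome tag, the age of the mice or the number of animals behind a library. The name of the deposited table carries the letters SN, while the sample labels say midbrain and their protocol covers the substantia nigra and the ventral tegmental area, together or apart. The labels number the replicates without calling them separate animals, so a p-value reflects no more than the spread among these 8 libraries, which may be technical.

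Most proteins of a mitochondrion are made in the cytosol and imported. The outer membrane translocase (TOM) takes them up. The presequence translocase of the inner membrane (TIM23) and its motor pass on those with a cleavable presequence. Small chaperones of the space between the membranes escort the carriers to a second inner membrane translocase (TIM22). Most of the carriers then exchange nucleotides, phosphate, acids, amino acids, cofactors and metal ions across the inner membrane. MPTP is converted to an inhibitor of respiratory complex I that dopaminergic neurons take up.

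Library totals lay between 54192354 and 78892061 counts, and the members took between 0.4501% and 0.5041% of a library. Levels are CPM, counts scaled to a common library size by the TMM method, and levels of different genes are compared per length as RPKM, CPM per kilobase of exon. The libraries carried their labelled identity: Th was at 1847 to 3023 CPM and Slc6a3 at 2505 to 3777 CPM. Saline 3 stood apart from the other saline libraries. Its 14 dopaminergic markers summed to 8168 CPM, against 12634 to 13634 CPM in saline 1, 2 and 4 and 9131 to 10810 CPM in MPTP. Its 11 oligodendrocyte markers summed to 1732 CPM, against 819 to 985 CPM and 1186 to 1365 CPM. The 10 astrocyte markers summed to 341 CPM in saline 3, against 267 to 284 CPM and 303 to 330 CPM. The 10 microglia markers summed to 38 CPM there, against 24.9 to 33.5 CPM and 32.2 to 41 CPM, and the 9 endothelial markers to 21.2 CPM, against 9.74 to 15.2 CPM and 10.1 to 16.8 CPM. The 5 markers of other neurons summed to 449 CPM, against 263 to 304 CPM and 263 to 397 CPM. The MPTP libraries also differed from saline 1, 2 and 4. All their dopaminergic sums lay below those 3 libraries, and all their oligodendrocyte and astrocyte sums above. Their microglia, endothelial and other neuron sums overlapped with those 3 libraries. Apart from saline 3, these marker levels thus went with treatment and cannot be told apart from it in this design. No listed marker was at 0 in all libraries. In bulk RNA, fewer cells of a type and less RNA per cell cannot be told apart. A fit with a score of non-neuronal markers as a covariate is given below. Whether these marker differences caused any result was not tested.

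Among the carriers 1 gene dominated in saline. Slc25a4, the adenine nucleotide translocase that exchanges ADP for ATP in heart, muscle and brain, was at 343 ± 47.5 RPKM (SD, n = 4) and held 35.7% of the summed carrier RPKM. Its paralog Slc25a5, which serves the same exchange in many tissues, followed at 85.9 ± 12.2 RPKM (SD, n = 4). Slc25a11, the oxoglutarate and malate carrier, and Slc25a3, which brings in phosphate for ATP synthesis, came next at 61.5 ± 2.77 and 57.2 ± 5.42 RPKM (SD, n = 4 each). The levels of these 2 carriers differed by less than the spread of Slc25a3. The calcium-regulated ATP-Mg and phosphate carrier Slc25a23 was at 42.9 ± 4.96 RPKM and the citrate carrier Slc25a1 at 35.6 ± 2.7 RPKM (SD, n = 4 each). The first 3 carriers together made up 51% of the carrier sum.

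The rest of the family spread over several orders of magnitude. In saline 19 carriers reached 10 RPKM, 17 lay between 1 and 10, and 11 lay under 1. Those under 1 were Slc25a30, Slc25a43, Slc25a54, Slc25a47, Slc25a45, Slc25a21, Slc25a34, Slc25a2, Slc25a31, Slc25a41 and Slc25a48. Slc25a31, the adenine nucleotide translocase of the testis, was at 0.13 ± 0.0795 RPKM (SD, n = 4).

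Import translocases were less often low: 19 of 24 reached 10 RPKM in saline. Their median was 15.7 RPKM, against 4.41 RPKM for the carriers. The first 3 import genes held 63.5% of the summed import RPKM, against 51% for the first 3 carriers. The sets hold 24 and 47 genes, so these shares do not measure concentration alike. Timm8b, a small chaperone of the intermembrane space, was highest at 515 ± 63.1 RPKM (SD, n = 4), 45.7% of the summed import RPKM. Its annotated exons span only 518 bases. Tomm6, a small subunit of the outer membrane translocase, was at 116 ± 14.1 RPKM, an uncertain level because its exons overlap those of Gm21981 on the same strand and of Tomm6os and Usp49 on the other. The central receptor Tomm22 was at 69.5 ± 12.6 RPKM (SD, n = 4 each). The receptor Tomm20 (16.2 ± 1.44 RPKM), the receptor Tomm70a (17.5 ± 2.55 RPKM), which recognises carrier proteins, and the channel gene Tomm40 (13.3 ± 0.801 RPKM) lay within a narrow range on this length (SD, n = 4 each). With the longest transcript as length they were at 16.2, 28.6 and 21.7 RPKM, so their order depends on the exon model. Among the lowest tested translocases was the motor anchor Timm44 at 4.05 ± 0.597 RPKM (SD, n = 4). Timm8a2, a relative of Timm8a1, had 2 counts in MPTP 1 and 0 counts in every other library.

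**Figure D1:**
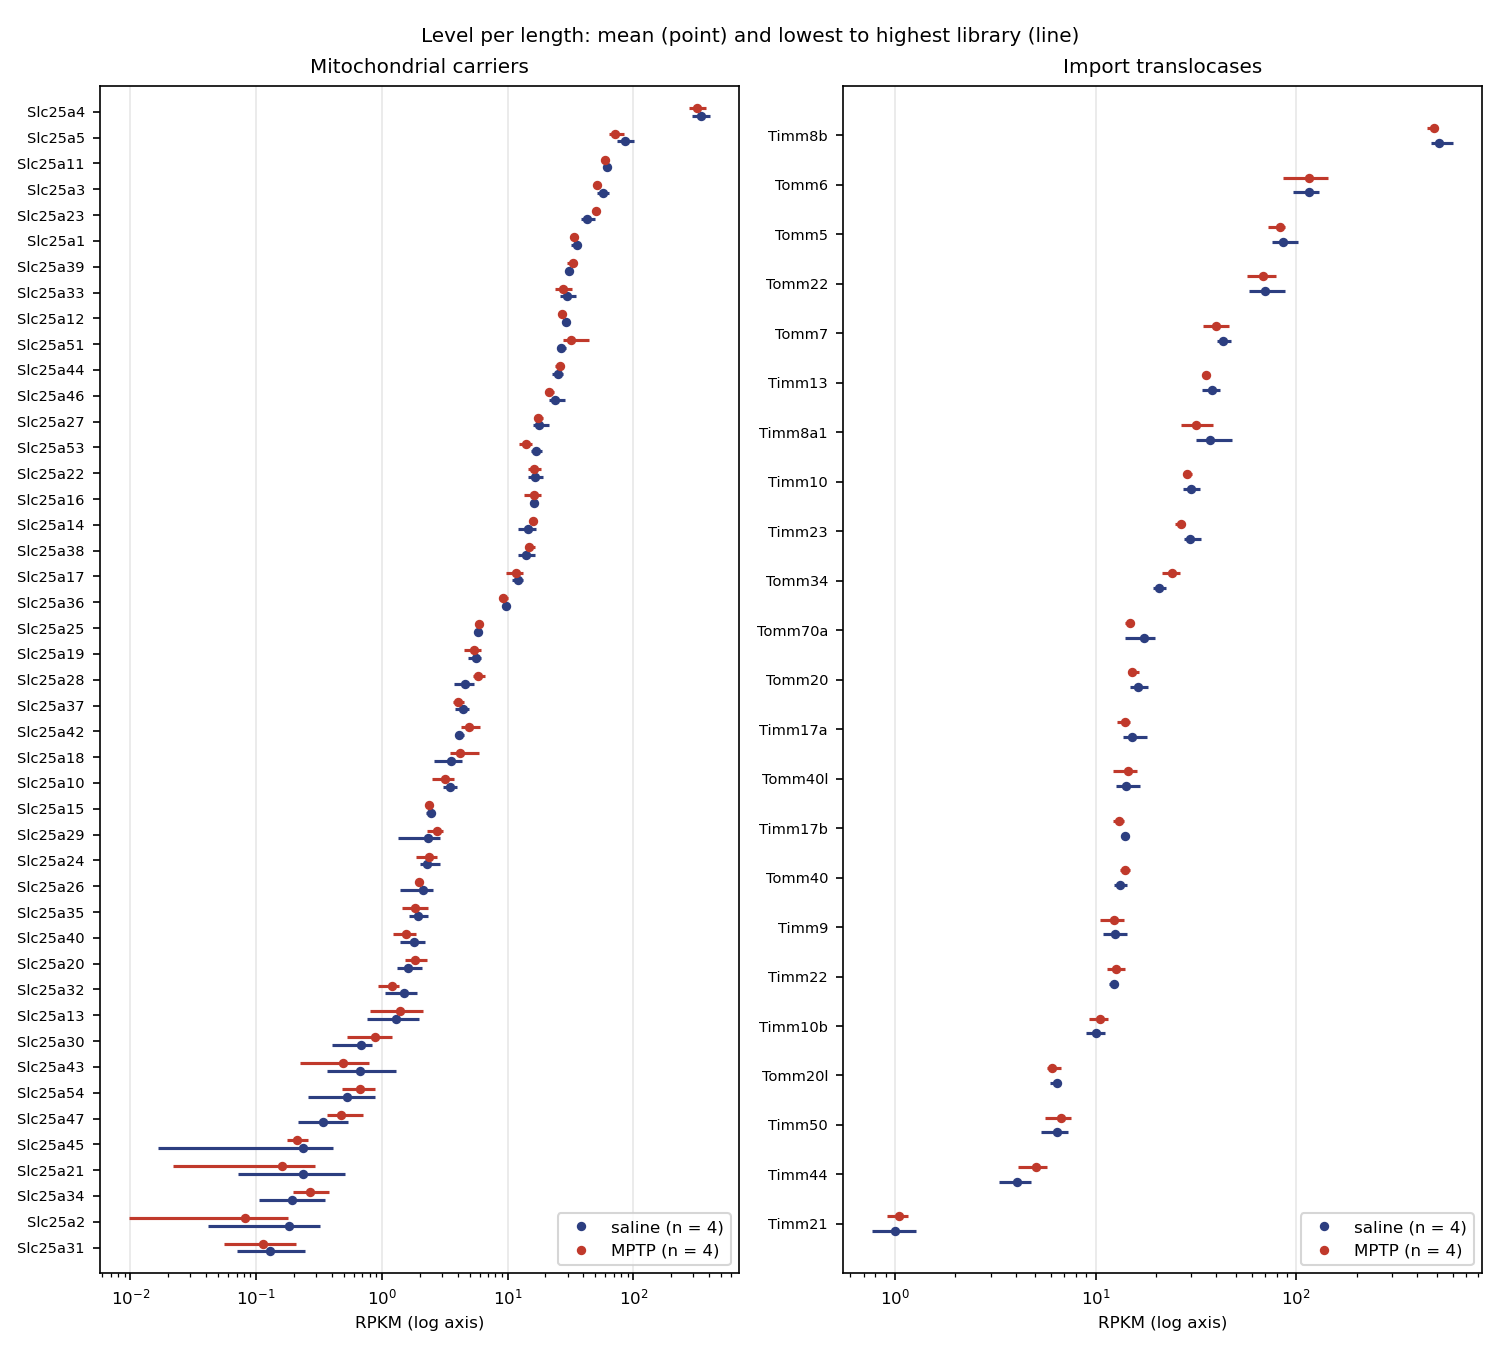
Level per length (RPKM, log axis) of carriers (left) and import translocases (right) in saline (blue) and MPTP (red). Points are means of 4 libraries and lines run from the lowest to the highest library; the genes are ordered by saline mean, and Slc25a41, Slc25a48 and Timm8a2 lie under the range drawn. Slc25a4 (343 RPKM in saline) and Timm8b (515 RPKM) stand at the top, and the ranges of both groups overlap in every gene that was tested.

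Short letters shared by import gene promoters are shown next, because the name rule did not use sequence and factors of the ETS family and NRF1 are known for binding promoters of nuclear genes for mitochondria. Promoters run from 250 bases before to 50 bases after a transcription start and were matched by gene identifier in RefSeq (GRCm38.p6). They were present for 57 of the 71 members, 36 carriers and 21 import translocases. The ETS core, searched as CCGGAAG on both strands, was in 8 of 21 import genes (38.1%), 7 of 36 carriers (19.4%) and 12.9% of 17492 protein-coding genes. The NRF1 consensus, a palindrome with 1 free base, was in 2 import genes (9.52%), 2 carriers (5.56%) and 7.17% of protein-coding genes. The cyclic AMP element TGACGTCA, a palindrome, was in 0 of the 21 import genes and 2 carriers (5.56%), against 2.54%. The YY1 core AAGATGGC, also searched on both strands, was in 1 import gene (4.76%) and 1 carrier (2.78%), against 3.57%. Base composition was not matched, and a match of letters is a description only.

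The ETS core is in capitals below, 5′ to 3′ on the strand of the gene, with 10 bases on each side, for every import gene that passed the filter and for the 2 most abundant carriers that held it; CTTCCGG is the same core on the other strand.
Tomm70a, chr16:57121624-57121650, plus strand: ccttctgaccCCGGAAGtggttctccc
Tomm70a, chr16:57121696-57121722, plus strand: atgccccgggCTTCCGGtgacctctgg
Tomm22, chr15:79670811-79670837, plus strand: gcccggctcgCTTCCGGaagacgctct
Tomm22, chr15:79670863-79670889, plus strand: ctctcttccgCTTCCGGtgtcctacag
Timm23, chr14:32201922-32201948, minus strand: gcgcttcccaCTTCCGGgccgcacaca
Timm23, chr14:32201865-32201891, minus strand: gagccggcgcCCGGAAGgtcagcgtgg
Timm8b, chr9:50603879-50603905, plus strand: gaagcgtgaaCCGGAAGgcaggagacg
Tomm34, chr2:164071192-164071218, minus strand: tgagcccactCTTCCGGccgcttagct
Tomm34, chr2:164071095-164071121, minus strand: gcagccctagCTTCCGGgtggaagctg
Timm10, chr2:84826995-84827021, plus strand: tcggcgttttCTTCCGGatcaaagaag
Timm10, chr2:84827024-84827050, plus strand: gctagacttcCTTCCGGaagtgaccca
Timm10b, chr7:105640471-105640494, plus strand: tgagagtttaCTTCCGGggcgact
Slc25a4, chr8:46211176-46211202, minus strand: cccctagctcCCGGAAGcgtcttcgcc
Slc25a3, chr10:91124126-91124152, minus strand: actagcagggCCGGAAGggctggggtt
Of the 8 import genes with the core, 6 held it at 2 places: Tomm70a, Tomm22, Timm23, Tomm34, Timm10 and the untested Timm8a2. The Timm10b sequence ends where its window ends. In the first Tomm22 and the second Timm10 sequence the core occurs on both strands in overlap and was counted as 1 place.

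The question put to MPTP and saline was whether the toxin moved these genes in the RNA on the ribosomes of dopaminergic neurons. With all 8 libraries no carrier and no import translocase passed edgeR's quasi-likelihood test, at a Benjamini-Hochberg adjusted p of 0.05 over the 15999 genes tested. The test called 17 of these genes (0.106%), 12 higher in MPTP (0.075%) and 5 lower (0.0313%). Of the 71 members, 45 carriers and 23 import translocases passed the filter on low counts, and Slc25a41, Slc25a48 and Timm8a2 did not. An unadjusted p under 0.05 was found for 5 carriers (3 with higher and 2 with lower values in MPTP) and 3 import translocases (2 and 1), 11.8% of the tested members. Over all genes tested it was found for 8.78%, with higher values in 4.28% and lower values in 4.5%. DESeq2 also called 0 members, while it called 0.332% of 16850 genes (0.148% higher and 0.184% lower). No member separated the groups completely, whereas 4.19% of all genes tested did.

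Measured changes were small, and their intervals were narrow for most members. The median log2 fold change, MPTP minus saline, was -0.05 for the carriers and -0.05 for the import translocases, against 0.00 over all genes tested. Log2 fold changes were below 0 for 26 of 45 carriers and 14 of 23 import translocases (49.9% of all genes). All 57 members with a mean CPM of at least 5 had a 95% interval inside a 2-fold change in either direction, and 50 of them inside a 1.5-fold change. Their estimates ran from -0.30 to 0.36. Among the 11 tested members under that level only 3 intervals stayed inside 2-fold, and Slc25a2, an ornithine carrier with 1 to 29 counts in a library, had a log2 fold change of -1.16 (SE 0.92). For such low carriers a change was not detectable at this depth.

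**Figure D2:**
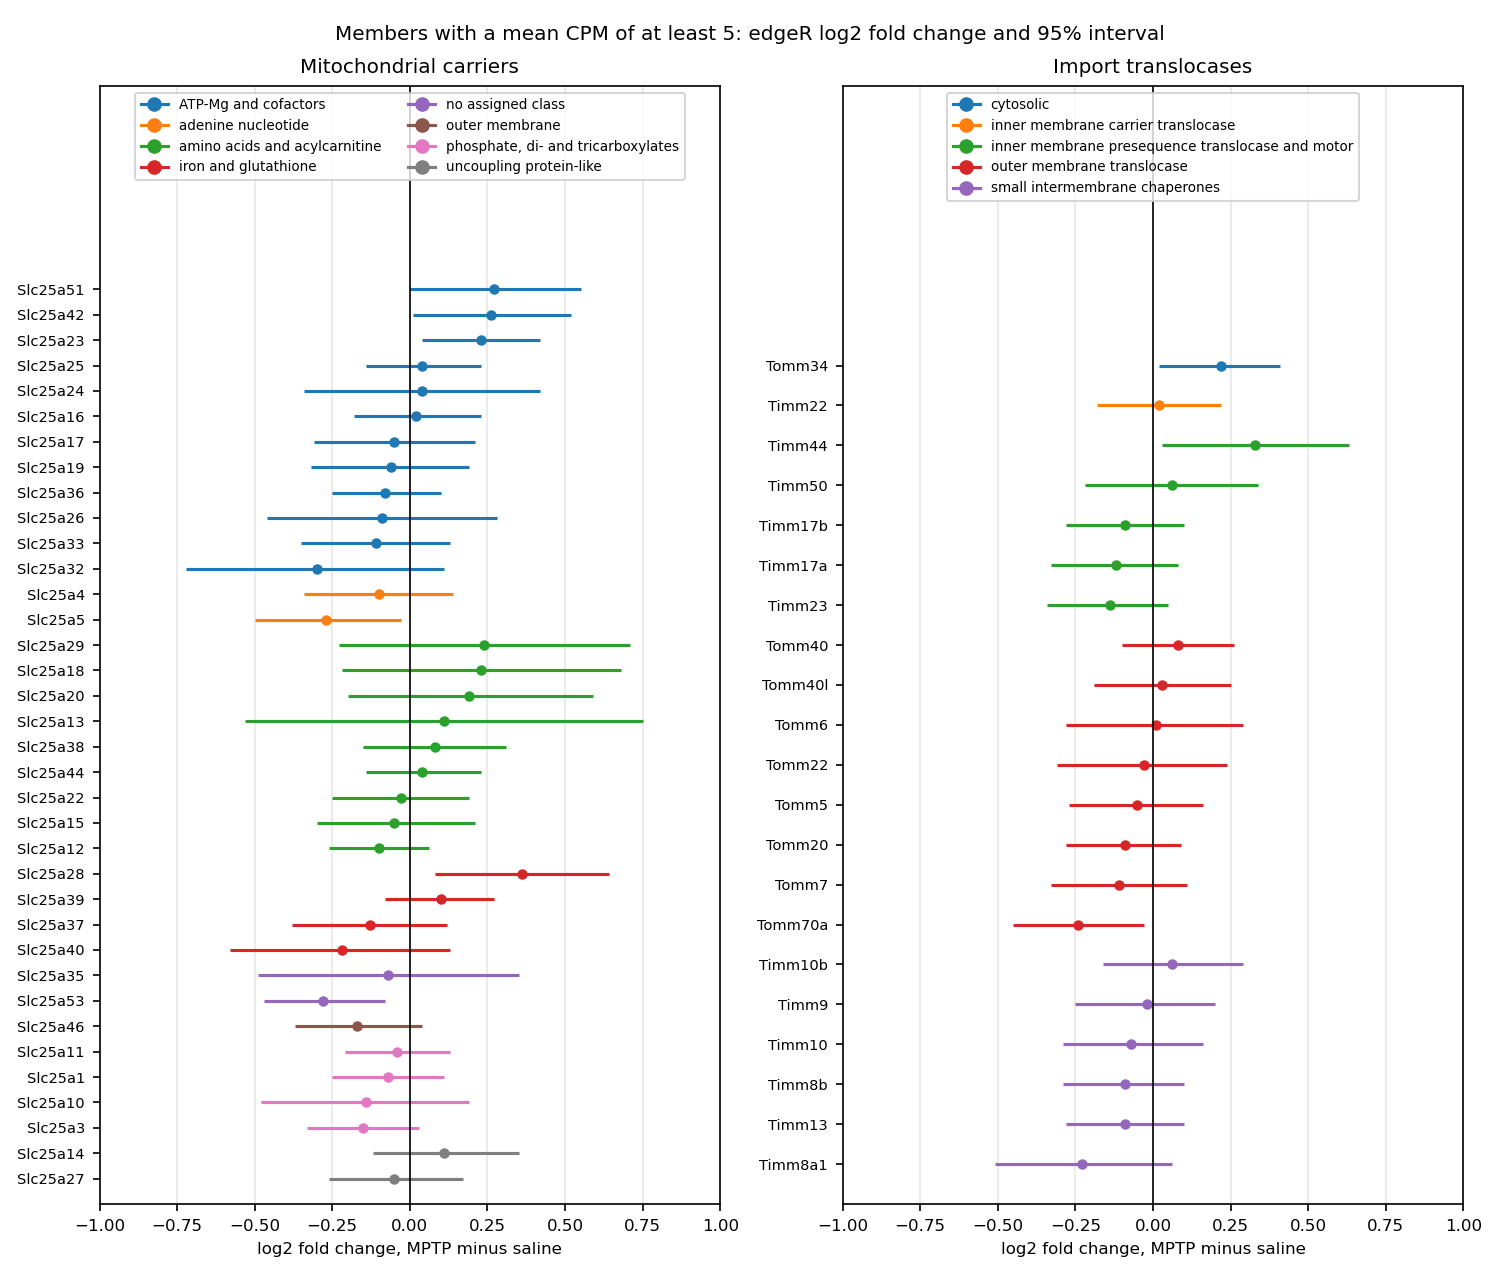
Log2 fold change, MPTP minus saline, with its 95% interval from edgeR's quasi-likelihood fit, for the 57 members with a mean CPM of at least 5, coloured by role. Every interval lies between -1 and 1, and the estimates run from -0.30 to 0.36 (Slc25a28).

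Neither abundant adenine nucleotide carrier passed the threshold. Slc25a4 was at 775.3, 656.9, 893.8 and 687.4 CPM in MPTP 1 to 4 and at 693.9, 954.6, 755.7 and 822.6 CPM in saline 1 to 4. The groups overlapped, and the log2 fold change was -0.10 (SE 0.11, 95% interval -0.34 to 0.14, adjusted p = 0.846 by edgeR's quasi-likelihood test). Slc25a5 was at 118.5, 107.4, 140 and 104.7 CPM in MPTP and at 121.9, 168.7, 132.4 and 142.8 CPM in saline. Only MPTP 3 reached into the saline range, and the log2 fold change was -0.27 (SE 0.11, 95% interval -0.50 to -0.03, edgeR adjusted p = 0.507).

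The ratio of these paralogs within a library, which no scaling of the libraries can move, did separate the groups. Per length, Slc25a4 exceeded Slc25a5 by a log2 ratio of 1.99, 1.99, 2.0 and 2.01 in saline 1 to 4 and of 2.19, 2.10, 2.16 and 2.20 in MPTP 1 to 4. All MPTP libraries were above all saline libraries, saline 3 included, although the step was small: Slc25a4 made up 79.8% to 80.1% of the pair in saline and 81.1% to 82.1% in MPTP. Without any 1 library the difference of 0.17 stayed between 0.15 and 0.19. GENCODE places Slc25a4 on chromosome 8 (46206797 to 46211284, minus strand of GRCm38) and Slc25a5 on chromosome X (36795651 to 36798807, plus strand). Slc25a5 matches 3 pseudogenes at 95% identity or more, over up to 900 bases, so its count may be split with them.

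Iron carriers gave the larger ratio difference. Mitoferrin 2, Slc25a28, supplies iron to mitochondria of most cells, and mitoferrin 1, Slc25a37, is best known from developing red cells. Slc25a28 was at 21.22, 19.94, 21.67 and 24.72 CPM in MPTP and at 18.76, 15.27, 20.24 and 14.06 CPM in saline. Saline 3 alone, at 20.24 CPM, lay inside the MPTP range. The log2 fold change was 0.36 (SE 0.13, 95% interval 0.08 to 0.64, edgeR adjusted p = 0.475), the largest among members with a mean CPM of at least 5. Slc25a37 was at 25.01, 22.15, 26.93 and 22.99 CPM in MPTP and at 29.95, 23.96, 29.37 and 22.92 CPM in saline, and its log2 fold change was -0.13 (SE 0.12). Both groups covered much the same range for mitoferrin 1.

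Per length the log2 ratio of Slc25a28 over Slc25a37 was 0.45, 0.53, 0.37 and 0.79 in MPTP and 0.01, 0.03, 0.15 and -0.02 in saline. All MPTP libraries lay above all saline libraries. Mitoferrin 2 made up 49.6% to 52.5% of the pair in saline and 56.4% to 63.3% in MPTP, and the difference of 0.49 stayed between 0.41 and 0.55 without any 1 library. Slc25a37 shares 473 exonic bases with genes on the other strand, and reads of the strands cannot be told apart here. Slc25a28 (chromosome 19, 43663801 to 43674881, minus strand) shares none. In the same class the glutathione carriers Slc25a39 and Slc25a40 had log2 fold changes of 0.10 (SE 0.08) and -0.22 (SE 0.17).

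Of 12 pairs of related members, these 2 had ratios that did not overlap between the groups, and 10 overlapped. Over all pairs of genes with a mean CPM of at least 5, 4.8% of ratios did not overlap, so a separated ratio is not rare in these data. The 12 pairs were chosen with earlier results of these data known, so their share cannot be read against this one as an excess. The glutathione carriers Slc25a39 and Slc25a40 (log2 ratio 4.43 ± 0.35 for MPTP, 4.11 ± 0.25 for saline; SD, n = 4 each), the aspartate and glutamate carriers Slc25a12 and Slc25a13 (4.36 ± 0.53 and 4.57 ± 0.56) and the channel genes Timm17a and Timm17b (0.09 ± 0.16 and 0.12 ± 0.20) overlapped. The ratio of Tomm40 to its paralog Tomm40l (-0.04 ± 0.21 and -0.09 ± 0.26) overlapped too. With the longest transcript as length saline Tomm40 was at 21.7 and Tomm40l at 15.5 RPKM, so which of them is higher depends on the exon model. Tomm40l shares 3304 exonic bases with Nr1i3 on the other strand, so its level is uncertain.

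**Figure D3:**
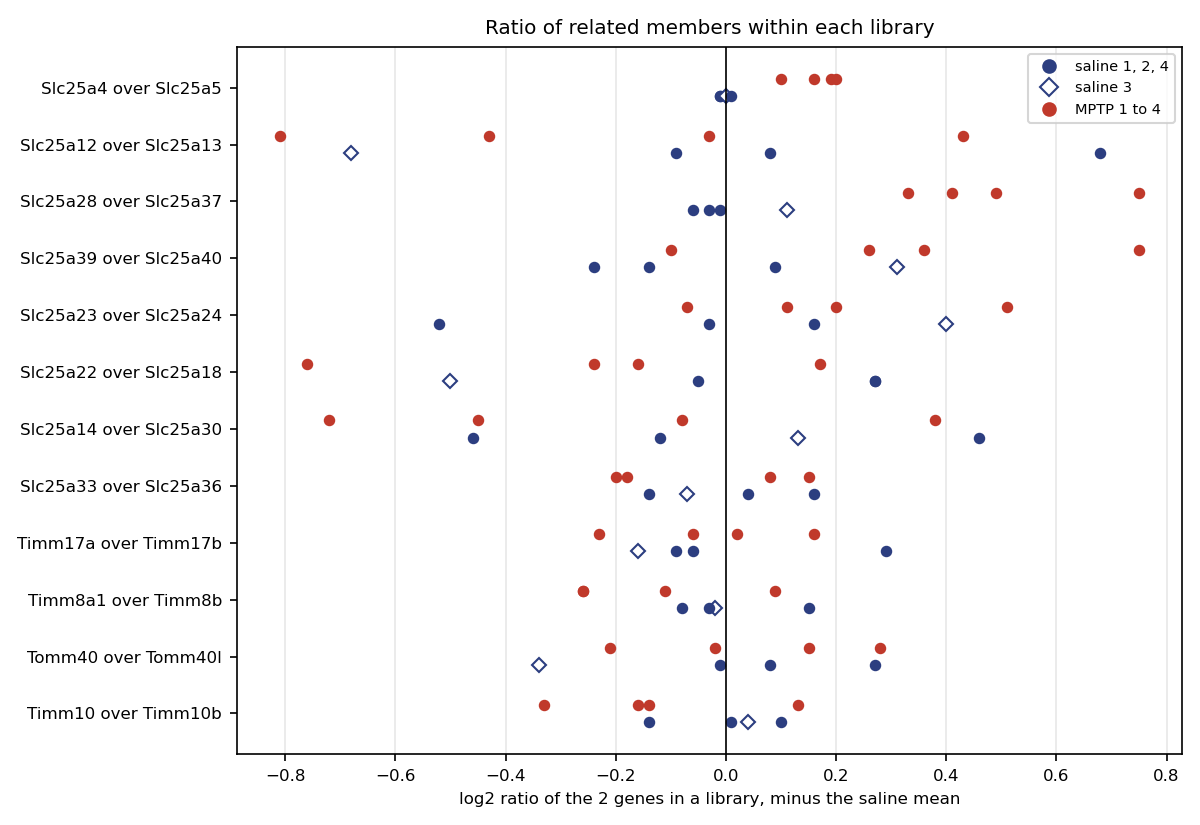
Log2 ratio of related members in each library, as the difference from the mean of the 4 saline libraries, for 12 pairs (saline blue, saline 3 as an open diamond, MPTP red). Only Slc25a4 over Slc25a5 and Slc25a28 over Slc25a37 have all MPTP libraries to the right of all saline libraries.

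Carriers of ATP-Mg and cofactors had 6 of 12 tested genes above 0 and a median log2 fold change of -0.01. Slc25a23 was at 256.4, 265.9, 259.9 and 281.2 CPM in MPTP and at 223.2, 203.2, 264.5 and 217.8 CPM in saline. Saline 1, 2 and 4 lay below every MPTP library, and saline 3 lay among them. The log2 fold change was 0.23 (SE 0.09, edgeR adjusted p = 0.492).

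The coenzyme A carrier Slc25a42 was at 25.6, 35.97, 25.94 and 29.67 CPM in MPTP and at 24.49, 22.73, 23.23 and 27.24 CPM in saline. Saline 4 lay inside the MPTP range. It had a log2 fold change of 0.26 (SE 0.12, edgeR adjusted p = 0.557). The NAD carrier Slc25a51 had 0.27 (SE 0.13, edgeR adjusted p = 0.571), but rested on MPTP 4: it was at 160.3, 153.6, 151.7 and 243.7 CPM in MPTP and at 161.7, 135.6, 144.1 and 145.6 CPM in saline. Without MPTP 4 it had 0.08. The pyrimidine nucleotide carriers Slc25a33 (-0.11) and Slc25a36 (-0.08) differed by about their SE of 0.11 and 0.08, and Slc25a24, a paralog of Slc25a23, had 0.04 (SE 0.18).

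All 5 carriers of phosphate, di- and tricarboxylates had log2 fold changes below 0, with a median of -0.14, and 0 of them had an unadjusted p under 0.05. The phosphate carrier Slc25a3 was at 291.2, 268.4, 299.8 and 283.6 CPM in MPTP and at 317.1, 358.7, 287.7 and 306.4 CPM in saline, a log2 fold change of -0.15 (SE 0.09, edgeR adjusted p = 0.635). Saline 3 was the lowest saline library. Slc25a11 (-0.04), the citrate carrier Slc25a1 (-0.07) and the dicarboxylate carrier Slc25a10 (-0.14) had intervals that included 0.

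Among amino acid and acylcarnitine carriers 6 of 10 were above 0, with a median of 0.06. Slc25a12, the neuronal aspartate and glutamate carrier of the malate-aspartate shuttle, was at 198.7, 192.6, 189.9 and 210.2 CPM in MPTP and at 216.3, 213.4, 213.8 and 206.4 CPM in saline. MPTP 4 alone reached the saline range, and the log2 fold change was -0.10 (SE 0.07, edgeR adjusted p = 0.723). The glutamate carriers Slc25a22 (-0.03) and Slc25a18 (0.23, SE 0.21) and the basic amino acid carrier Slc25a29 (0.24, SE 0.22) were not told apart from no change. Slc25a13, the paralog of Slc25a12 best known from liver, had 0.11 (SE 0.30). The brain uncoupling protein-like carriers Slc25a27 and Slc25a14 had -0.05 (SE 0.10) and 0.11 (SE 0.11), and their low relative Slc25a30 had 0.35 (SE 0.29).

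The smallest unadjusted p of all members was that of Slc25a53, for which the role classes name no substrate. It was at 114.8, 97.7, 123.2 and 109.2 CPM in MPTP and at 138, 149.7, 122.9 and 128.8 CPM in saline. The groups met only where MPTP 3 lay just above saline 3. Its log2 fold change was -0.28 (SE 0.09, 95% interval -0.47 to -0.08, edgeR adjusted p = 0.415). In the same class the low genes Slc25a43 and Slc25a47 had -0.45 (SE 0.53) and 0.49 (SE 0.43). Slc25a46, an outer membrane protein tied to mitochondrial fusion and fission, had -0.17 (SE 0.10, edgeR adjusted p = 0.643).

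In the outer membrane translocase 6 of 9 genes were below 0, with a median of -0.05. Tomm70a was at 137.6, 147.9, 147.6 and 146.2 CPM in MPTP and at 192.7, 187.7, 138.1 and 164.8 CPM in saline. The MPTP libraries lay close together, saline 1, 2 and 4 above them and saline 3 among them. The log2 fold change was -0.24 (SE 0.10, 95% interval -0.45 to -0.03, edgeR adjusted p = 0.506). Its promoter is among those with 2 ETS cores shown above, as are those of Tomm22 (-0.03, SE 0.13), Timm23 (-0.14, SE 0.09), Timm10 (-0.07, SE 0.11) and Tomm34 (0.22, SE 0.09).

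Other outer membrane genes differed by about their error or less. Tomm20 had a log2 fold change of -0.09 (SE 0.09), Tomm40 of 0.08 (SE 0.08), Tomm7 of -0.11 (SE 0.10) and Tomm6 of 0.01 (SE 0.14). Tomm20 matches 4 pseudogenes, over up to 435 bases. The cytosolic cochaperone Tomm34, which shares the name but not the complex, was at 65.07, 79.8, 76.26 and 71.63 CPM in MPTP and at 68.19, 59.11, 59.52 and 65.26 CPM in saline. MPTP 1 lay inside the saline range, and the log2 fold change was 0.22 (SE 0.09, edgeR adjusted p = 0.507).

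The presequence translocase and its motor had 3 of 6 genes above 0 and a median of -0.01. Timm44, which ties the matrix Hsp70 to the channel, was at 20.02, 15.04, 18.36 and 21.06 CPM in MPTP and at 15.04, 17.47, 12.13 and 14.65 CPM in saline. MPTP 2 lay within the saline range, the other 3 MPTP libraries above it. The log2 fold change was 0.33 (SE 0.14, edgeR adjusted p = 0.515). The channel genes Timm17a (-0.12, SE 0.10) and Timm23 and the receptor Timm50 (0.06, SE 0.13) had intervals that included 0. Timm23 matches 5 pseudogenes, over up to 628 bases, and Timm17a matches 1, over 516 bases, which may take part of their reads.

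Small chaperones of the intermembrane space were below 0 in 5 of 6 tested genes, with a median of -0.08, and 0 of them had an unadjusted p under 0.05. Timm8a1, whose human counterpart is mutated in deafness-dystonia syndrome, was at 47.07, 41.4, 54.6 and 37.9 CPM in MPTP and at 44.97, 68.06, 47.22 and 51.93 CPM in saline. The groups overlapped, at a log2 fold change of -0.23 (SE 0.13, edgeR adjusted p = 0.648). Timm8a1 matches 1 pseudogene, over 612 bases, which may take part of its reads. Timm8b and Timm13 had -0.09 each (SE 0.09 each), Timm10 had -0.07 (SE 0.11) and Timm10b 0.06 (SE 0.11). Timm22, the channel of the carrier translocase, was nearly level at 0.02 (SE 0.09).

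**Figure D4:**
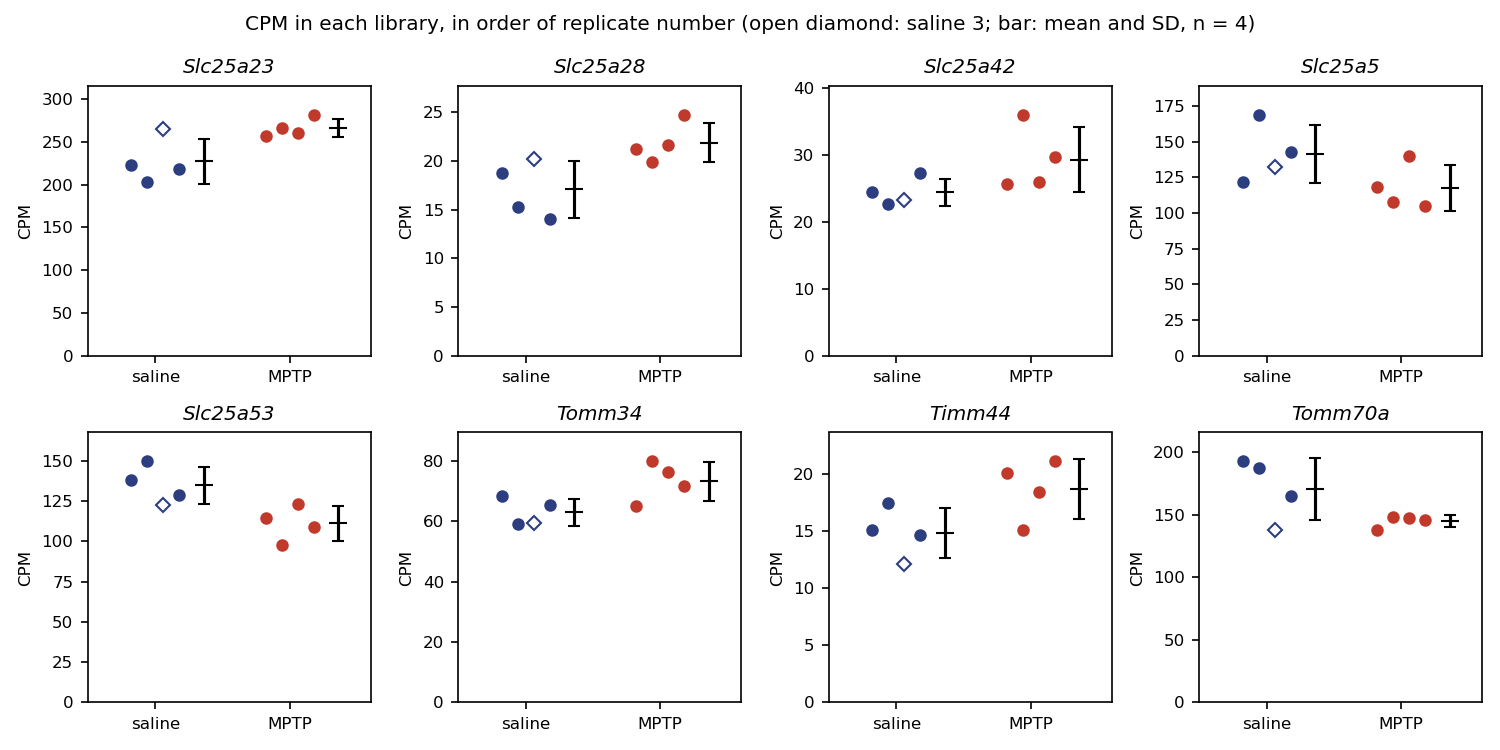
CPM in each library (points, in order of replicate number, saline blue and MPTP red) with mean and SD (bars, n = 4) for the 8 members with an unadjusted p under 0.05; each axis starts at 0, and the open diamond is saline 3. Saline 3 lies inside the MPTP range for Slc25a23, Slc25a28, Slc25a5, Slc25a53 and Tomm70a and below it for Slc25a42, Tomm34 and Timm44.

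Leaving out saline 3 brought 2 of the 68 tested members past the threshold, where 1.84% of all 16180 genes tested passed (0.853% higher and 0.983% lower in MPTP). Slc25a23 was then higher in MPTP (log2 fold change 0.31, edgeR adjusted p = 0.0492) and Tomm70a lower (-0.33, edgeR adjusted p = 0.0487), both close to the limit. In both genes saline 3, the library with the lowest dopaminergic and highest oligodendrocyte marker sum, had a level within the MPTP range. Slc25a53 (-0.32, edgeR adjusted p = 0.0815) and Slc25a28 (0.45, edgeR adjusted p = 0.0928) stayed outside. With a score of non-neuronal markers as a covariate and all 8 libraries, none of the members passed. Slc25a23 then had 0.16 (edgeR adjusted p = 0.791), Tomm70a -0.14 (0.844), Slc25a53 -0.21 (0.721), Slc25a28 0.29 (0.747) and Timm44 0.48 (0.499). The share of all genes called in this fit is not given here, so the member count has no background beside it.

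Partner genes were counted in the same way. Of 43 tested, 0 passed with all 8 libraries, 24 were below 0 and the median log2 fold change was -0.04. An unadjusted p under 0.05 was found for 6 (14%), all with lower values in MPTP, against 8.78% of all genes tested, 4.5% with lower values. The groups did not overlap in 1 of the 43, against 4.19% of all genes tested, so 1 such gene is not rare in these data. That gene had higher values in MPTP: the inner membrane protease subunit Spg7, named after its values were seen, with a log2 fold change of 0.21 (SE 0.12, edgeR adjusted p = 0.659). The inner membrane sideroflexin Sfxn3 was at 141.8, 160.5, 160.1 and 169.6 CPM in MPTP and at 191.8, 203.6, 167.8 and 205 CPM in saline (log2 fold change -0.28, SE 0.09, edgeR adjusted p = 0.415). Only MPTP 4 and saline 3 met. The matrix chaperonin Hspd1 had -0.27 (SE 0.11, edgeR adjusted p = 0.491), the pyruvate carrier subunit Mpc2 -0.26 (SE 0.10, edgeR adjusted p = 0.491) and the presequence peptidase subunit Pmpca -0.22 (SE 0.09, edgeR adjusted p = 0.506). Without saline 3, Sfxn3 (-0.34, edgeR adjusted p = 0.0434) and Hspd1 (-0.37, edgeR adjusted p = 0.0405) passed, 2 of the 43, where 0.983% of all genes tested passed with lower values, and the median was -0.12.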

How the data were processed

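The measurements are whole-number counts of reads by gene in 8 libraries, analysed as deposited by the authors. RNA was amplified to cDNA with the Ovation RNA-Seq System V2, per the labels' protocols. The submitters' processing notes name TopHat2 2.0.8 with mm10 as build. For the counting tool, its strand setting and its annotation the entry is: not given in the sources used here. The 90 genes without a symbol held at most 0.056% of a library. MPTP was compared with saline in edgeR 4.0.16 (R 4.3.3): TMM, filterByExpr by group, robust quasi-likelihood F-test, no covariate, Benjamini-Hochberg over 15999 genes, threshold 0.05. Intervals are 95%. RPKM used the union of GENCODE vM21 exons. Pseudogene matches needed 95% identity over at least 100 bases and were found for 14 members, not all of them pointed out above. The test was checked on simulated counts. Alternatives used DESeq2 1.42.0 and limma 3.58.1, other scalings, filters, a covariate and each library left out. Replicate numbers did not pair libraries.

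Members, lists and pairs were chosen with earlier results of these data known. Named genes were any past the threshold, the up to 3 smallest p and the highest level in each role class, both genes of each pair, 14 fixed members, the 4 partner genes with the smallest p and members that failed the filter; low carriers in the account of levels are named in full. No library duplicated another.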

Additional observations from a re-analysis of the deposited data

Results flagged for a closer look

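Some libraries stood far from the other 3 of their group, by the size of the gap relative to the range of the group. Chance gives such a gap in about 1 of 20 groups, and 7 of 116 groups showed it. In MPTP these were Slc25a1 in MPTP 1 (79.23 CPM, others 71.07 to 71.87), Slc25a18 in MPTP 2 (11.24 CPM, others 6.666 to 6.988), Slc25a51 in MPTP 4 (243.7 CPM, others 151.7 to 160.3), Timm13 in MPTP 2 (46.75 CPM, others 49.57 to 49.83) and Tomm70a in MPTP 1 (137.6 CPM, others 146.2 to 147.9). In saline, Timm23 was high in saline 2 (60.19 CPM, others 49.51 to 50.98). The mean log2 CPM of the dopaminergic markers was low in saline 3 (7.56, others 8.14 to 8.20).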

How the results depend on the processing

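Over the alternatives 0 carriers, import translocases or partner genes passed in either direction, except without saline 3 (1 carrier higher, 1 import translocase lower, 2 partner genes lower). The number of all called genes was 11 with a mean CPM of at least 5, 56 with DESeq2 and 8 to 297 when a library was left out, against 17. It was 10 without saline 1, 8 without MPTP 4 and 297 without saline 3. The medians with 1 library left out were -0.06 to -0.01 for carriers, -0.08 to -0.01 for import translocases and -0.12 to -0.02 for partner genes (-0.07 without MPTP 4). With saline 3 left out and the non-neuronal score as covariate, added after seeing the data, the carrier median was 0.02 and 0 members passed. The share of all genes called in that fit is not given here. In these cases the cause was not tested. With the replicate block 14 genes were called, 0 of them members; deviations of same-numbered libraries correlated between -0.116 and 0.0388. With the longest transcript as length Slc25a4 held 33.4% of the carrier sum and Timm8b 41.8% of the import sum. Of 49 levels per length, 29 moved by more than 1 SD with that length and 20 did not.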
